A study of Mus musculus with 3 samples.

Results

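The genes described here are 10 members of the fibroblast growth factor (FGF) system: the ligands Fgf2, Fgf7, Fgf10 and Fgf18, the receptors Fgfr1, Fgfr2 and Fgfr3, and the feedback inhibitors Spry1, Spry2 and Spry4. Open chromatin around them was mapped by ATAC-seq, an assay that tags accessible DNA with a transposase. The samples were mouse mesenchymal stem cells collected for work on heterotopic ossification, in which bone forms in soft tissue. Each of the 3 groups is a single library: cells labelled immobilized at day 7 post-injury, cells labelled non-immobilized at that same day, and pre-injury cells of day 0. Strain, sex, age, kind of injury, tissue, sorting and any pooling of animals are not in the labels used here. A summit is the 1 bp top of a peak called by the authors in 1 library. It was counted for a gene if, of all ends of protein-coding genes, the nearest was an end of that gene and lay within 50 kb. By this rule 142 of the 167038 summits on chromosomes 1 to 19 belonged to the 10 genes: 56 of 67404 in the immobilized library, 43 of 47912 in the non-immobilized library and 43 of 51722 at day 0. All 10 genes are in the gene table.

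FGF ligands bind receptor tyrosine kinases on the cell surface, with heparan sulfate as a cofactor, and signal mainly through the RAS and MAP kinase cascade. Sprouty proteins are induced by this signalling and dampen it. In the skeleton the pathway is known for its part in limb outgrowth, growth plate cartilage and bone formation, and ligands made by mesenchyme also act on neighbouring epithelium.

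The values below are of 2 kinds. The rank of a summit is its place by the authors' score in the list of its own library, with rank 1 the best; ranks from different lists stand side by side only as descriptions of each list. The second value is a number of accessible regions. Because the lists differed in length, only the 47912 best-scored summits of each, as many as the shortest list holds, entered the regions. Windows reaching 250 bp to either side of these summits were joined wherever they overlapped, whatever their library, and a library counted as having a region when 1 or more of its summits fell in it. The 10 genes held 61 of the 51389 regions assigned to a gene in this way. A region without a call in a library has no summit among its 47912 best, which does not show that the chromatin was closed. Since every group is 1 library, the differences between libraries carry no replicate error and no p-values. Ranges in brackets after a percentage are 95% Clopper-Pearson (exact binomial) limits and reflect counting error alone.

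Sequencing gave 143818952, 173029378 and 176119937 read pairs for the immobilized, non-immobilized and day 0 libraries. The authors' duplicate percentages for these libraries were 43.4%, 42.0% and 60.2%, applied here to aligned pairs. An upper estimate of the pairs left after alignment and removal of duplicates is 75269683, 90136518 and 63640194. All 12 mesenchymal marker genes had at least 1 region at day 7 immobilized and at day 0, and 10 of 12 at day 7 non-immobilized, where Ly6a and Lum had 0. The 10 keratinocyte markers summed to 50, 14 and 11 regions in the immobilized, non-immobilized and day 0 libraries, and Krt5, Krt14, Krt15 and Dsg3 were at 0 in the non-immobilized and day 0 libraries. The 10 endothelial markers summed to 32, 57 and 22 regions, with Sox17, Sox18 and Robo4 at 0 at day 0. Cells were measured in bulk, so fewer cells of a type and less open chromatin per cell cannot be told apart.

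Of the 10 genes, 4 had a summit of every library inside the window around a transcript start for which RefSeq gives the sequence (build GRCm38.p6, the assembly of mm10; 8 of the 10 genes are in that table, Fgfr1 and Spry4 are not). These promoters are shown because they are the places near these genes where the summits of all 3 libraries can be read on the sequence itself. Each is printed 5′ to 3′ on the plus strand, from 250 bases before the transcript start to 30 bases after it. Capitals mark the stretch from the lowest to the highest summit of the 3 libraries with 8 bases on either side. They lie at chr3:37348403-37348682 (Fgf2), chr2:126034408-126034687 (Fgf7), chr5:33721474-33721753 (Fgfr3) and chr3:37639697-37639976 (Spry1).
Fgf2: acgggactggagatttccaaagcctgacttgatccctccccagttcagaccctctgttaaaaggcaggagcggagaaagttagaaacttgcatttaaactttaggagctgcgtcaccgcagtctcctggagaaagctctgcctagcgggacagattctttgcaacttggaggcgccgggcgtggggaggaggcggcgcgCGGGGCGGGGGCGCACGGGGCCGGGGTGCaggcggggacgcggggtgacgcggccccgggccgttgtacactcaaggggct
Fgf7: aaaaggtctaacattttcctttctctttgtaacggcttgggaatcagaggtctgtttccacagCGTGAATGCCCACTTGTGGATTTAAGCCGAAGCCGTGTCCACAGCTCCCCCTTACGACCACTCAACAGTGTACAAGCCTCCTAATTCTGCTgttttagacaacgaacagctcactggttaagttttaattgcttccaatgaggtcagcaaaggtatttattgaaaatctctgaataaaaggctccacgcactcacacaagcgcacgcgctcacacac
Fgfr3: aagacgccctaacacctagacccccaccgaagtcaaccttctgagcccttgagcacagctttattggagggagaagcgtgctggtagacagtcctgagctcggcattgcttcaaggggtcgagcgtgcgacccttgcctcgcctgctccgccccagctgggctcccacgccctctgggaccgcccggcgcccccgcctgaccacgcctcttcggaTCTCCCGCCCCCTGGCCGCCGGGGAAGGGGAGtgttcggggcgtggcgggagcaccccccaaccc
Spry1: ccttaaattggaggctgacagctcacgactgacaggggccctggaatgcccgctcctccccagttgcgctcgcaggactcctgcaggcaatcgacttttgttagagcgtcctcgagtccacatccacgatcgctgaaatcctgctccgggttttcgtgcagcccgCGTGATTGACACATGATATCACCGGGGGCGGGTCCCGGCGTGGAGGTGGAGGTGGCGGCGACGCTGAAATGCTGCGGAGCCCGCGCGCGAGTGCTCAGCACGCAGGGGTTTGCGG

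The G and C content of the printed stretches was 63.2% for Fgf2, 45.7% for Fgf7, 68.2% for Fgfr3 and 63.2% for Spry1, against a median of 52.5% over the same stretch of all promoters in the table. The letters GGGCGG, the core bound by SP and KLF factors, lay inside the capitals of Fgf2, Fgfr3 and Spry1 on either strand and nowhere in the Fgf7 window. They occur in 35.7% of the 32851 promoter windows. The other motifs searched on both strands were TGANTCA (AP-1, in 7.81% of windows), CCGGAA (ETS, 14.9%), GGAATG (TEAD, 14.7%), CCAAT (NF-Y, 37.4%) and TGTGGT (RUNX, 16.8%). None of these lay inside the capitals of the 4 promoters, and no match in the printed sequences overlapped another. Outside the capitals, counted from the transcript start to the first base of the match, Spry1 held GGAATG at -208 and CCAAT at -244, Fgf7 CCAAT at -53 and Fgfr3 CCAAT at -188. A match of letters is a description and no evidence that a factor binds.

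**Figure D1:**
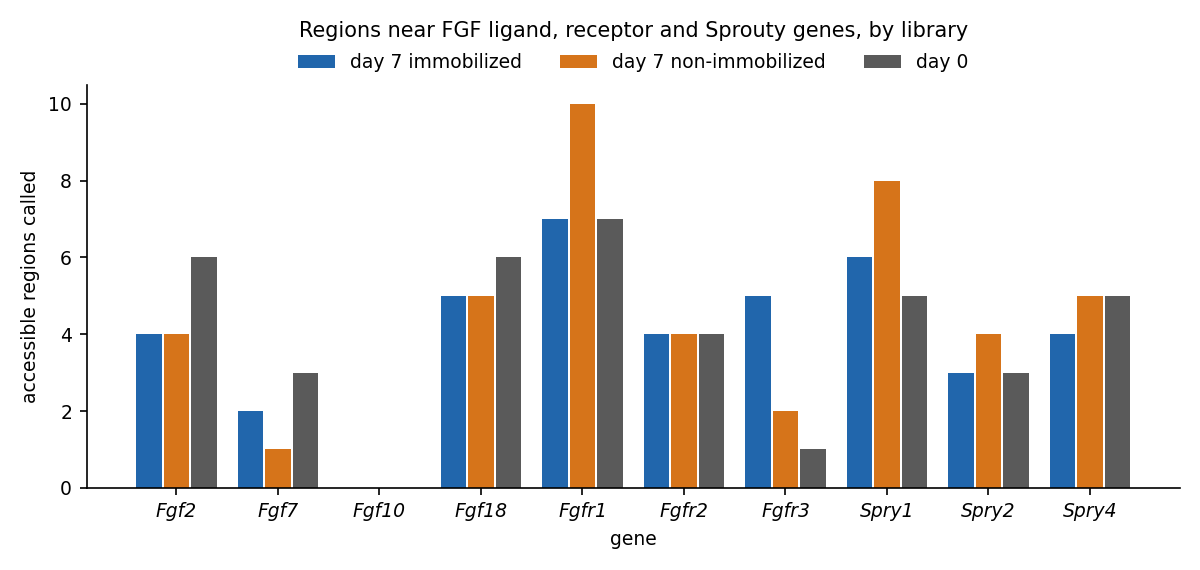
Number of accessible regions called near each of the 10 genes (y axis), with 1 bar per library: day 7 immobilized, day 7 non-immobilized and day 0. Fgfr1 had 7, 10 and 7 regions, Fgfr3 5, 2 and 1, Fgf2 4, 4 and 6, and Fgf10 had 0 in each library.

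Each of the ligands Fgf2, Fgf7 and Fgf18 had more regions at day 0 than in either day 7 library, and Fgf10 had none that entered the counts. Fgf2 (chromosome 3, 37348477 to 37410106), a broad mitogen of mesenchymal and endothelial cells, had 4 regions in the immobilized library, 4 in the non-immobilized library and 6 at day 0. The region at its start held summits 31, 43 and 37 bases before the printed transcript start, at ranks 15412, 11821 and 13552 in the immobilized, non-immobilized and day 0 lists. The 3 other shared regions lay inside the gene, with best summits 6431, 12373 and 22134 bp from its start. At the first of them the rank was 20193 in the immobilized list, 45481 in the non-immobilized list and 27438 at day 0. The 2 regions called at day 0 alone stood 5471 bp before and 774 bp after the gene start, at ranks 35366 and 39288. The second of these was 629 bp from the nearest summit of the immobilized list and 641 bp from that of the non-immobilized list. Farther inside, 4 more regions between 30140 and 53926 bp from the start were given to Nudt6, which has an end within Fgf2. Of those 4, 3, 3 and 4 were called in the immobilized, non-immobilized and day 0 libraries.

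Fgf7 (chromosome 2, 126034658 to 126091185), the keratinocyte growth factor that mesenchymal cells make and epithelial cells receive, had 2, 1 and 3 regions in the immobilized, non-immobilized and day 0 libraries. Its start region was called in all 3, with summits 179, 119 and 105 bp before the start and ranks of 37887, 29850 and 30155. Its best summit thus ranked lower than that of any other gene of the set apart from Fgf10, in each of the 3 lists. A region 6192 bp inside the gene was called in the immobilized library (rank 39359) and at day 0 (rank 46001), with no summit listed in the non-immobilized library, whose nearest was 6311 bp away. A further region 6816 bp inside was called at day 0 alone, at rank 43834. The non-immobilized library thus had only the start of Fgf7. In the immobilized list the region past the start ranked near the start region, and at day 0 the regions past it ranked well below it.

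Fgf10 (chromosome 13, 118714699 to 118792573), which shares its main receptor with FGF7 and is needed for limb bud outgrowth, had 1 summit in all. It stood 248 bp before the start in the immobilized list, at rank 59442 of 67404, beyond the matched length, so no region was counted. The nearest other protein-coding genes on either side lie 327447 and 542954 bp away.

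Fgf18 (chromosome 11, 33116970 to 33147400, minus strand), a ligand of cartilage and bone growth, had 5, 5 and 6 regions in the immobilized, non-immobilized and day 0 libraries. A region outside the gene, 18273 bp past the lower end, had ranks 9470, 12297 and 8507, the best of Fgf18 in the immobilized and day 0 lists. Regions 16653 bp past that end and 6064 bp inside it were also called in all 3 libraries; their ranks were 30159, 24843 and 18842 for the first and 14456, 12823 and 17086 for the second. Upstream of the start the libraries differed in position: the immobilized summit stood 480 bp before the start (rank 12953), and the non-immobilized and day 0 summits 1137 and 1141 bp before it (ranks 12188 and 14882). These count as 2 regions, because the summits are 657 bp apart, although each library had a well-ranked summit there. The immobilized library alone also had a region 1049 bp inside the start, at rank 35313. A region 41519 bp past the lower end was called in the non-immobilized library (rank 40293) and at day 0 (rank 25136), and 1 region 10214 bp inside the lower end at day 0 alone (rank 40752).

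**Figure D2:**
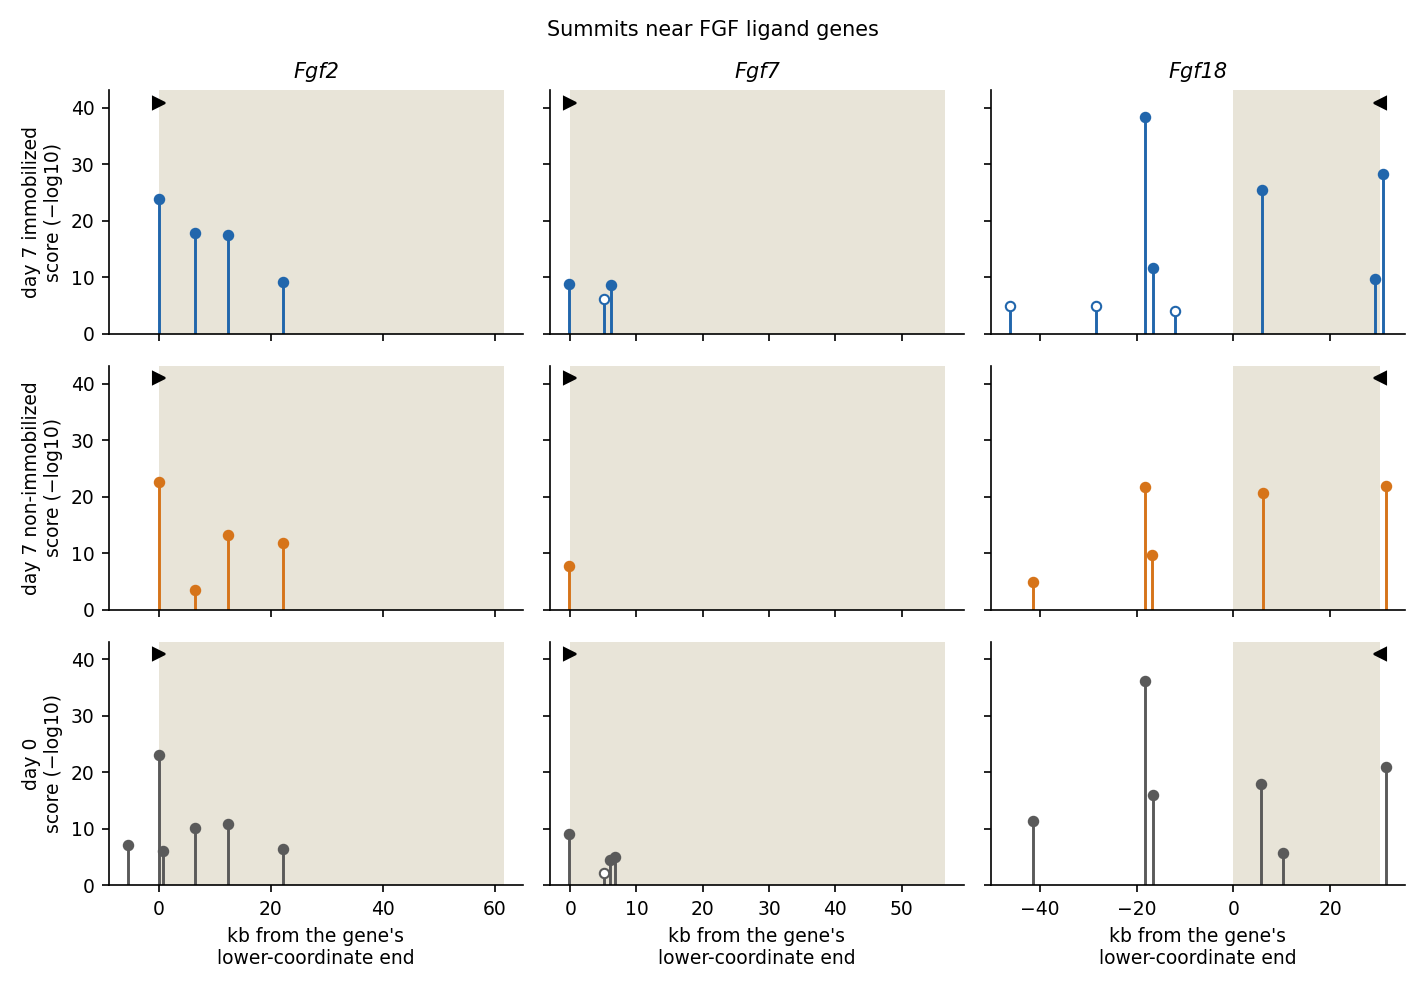
Summits near Fgf2, Fgf7 and Fgf18 in the 3 libraries (rows), by distance from the gene's lower-coordinate end in kb (x axis) and the authors' score as −log10 of a p or q value (y axis); the shaded span is the gene, the arrowhead its start, and open circles are summits beyond the matched list length. The 3 ligands have 15, 10 and 16 summits in the immobilized, non-immobilized and day 0 lists as deposited, and Fgf18 upstream of its start has its immobilized summit nearer the gene than the other 2 libraries.

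Among the receptors, Fgfr1 held the most regions of the set and Fgfr3 the largest difference between libraries. Fgfr1 (chromosome 8, 25518759 to 25575718), the main FGF receptor of mesenchymal cells, had 7 regions in the immobilized library, 10 in the non-immobilized library and 7 at day 0, out of 11; 3.34% of all 20661 protein-coding genes had as many or more. The best summit of each of the 11 lay inside the gene. The region at its lower end held ranks 7446, 8027 and 5287, and a second region 18537 bp inside held ranks 7472, 7362 and 6196, with summits of the 3 libraries within 8 bp of each other. Both were among the best-ranked of the set in every list. A region 36243 bp from the lower end ranked 9203 at day 0, against 20963 in the immobilized and 20473 in the non-immobilized list. The region 17407 bp from that end ranked 20812 at day 0, against 45372 and 40116 in the immobilized and non-immobilized lists. As a percentage of its own list's length, the day 0 rank was 17.8 and 40.2 in these 2 internal regions. The immobilized rank was 31.1 and 67.3 by the same measure, and the non-immobilized rank 42.7 and 83.7. With 1 library each, this describes the lists alone.

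Between 24863 and 26269 bp from the lower end, Fgfr1 held 3 further regions. The first was called in all 3 libraries, at ranks 21777, 17719 and 19270. The middle one was called at ranks 34848 and 24777 in the immobilized and non-immobilized libraries, with no day 0 summit closer than 908 bp. The last was called in the non-immobilized library alone, at rank 22623; the immobilized list has a summit 2 bp away at rank 47928, just past the matched length of 47912, and day 0 has none closer than 1639 bp. Of the 3 regions that the non-immobilized and not the immobilized library held for Fgfr1, all 3 had an immobilized summit beyond the matched length, at ranks 47928, 58411 and 50929. The difference of -3 for Fgfr1 between immobilized and non-immobilized was 0 with the lists as deposited.

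Fgfr2 (chromosome 7, 130162451 to 130266808, minus strand), a receptor of the osteoblast lineage whose epithelial isoform receives FGF7 and FGF10, had 4 regions in each library, of 6 in all. The best-ranked lay 479 bp inside the start, at ranks 10719, 8402 and 11925, with the summits of the 3 libraries within 6 bp. Another, 6530 bp upstream, was also called in all 3 (ranks 16774, 22233 and 26908). Regions called in the immobilized library alone lay 29227 bp inside the start (rank 32438) and 45310 bp past the lower end (rank 39033); no summit of either other library stood within 18227 bp of them. Regions 1331 bp inside the start and 12288 bp inside the lower end were called in the non-immobilized library (ranks 34419 and 44636) and at day 0 (ranks 31892 and 43119). For the first of these the immobilized list held a summit beyond the matched length, at rank 50657. Near the centre of this long gene 1 more region was called in all 3 libraries, at ranks 21870, 25340 and 34873; its summits are 50787, 50859 and 50921 bp from the nearest gene end, just outside the 50 kb limit, so it is not counted. The farthest counted summits were 46165 bp (Fgf18) and 45310 bp (Fgfr2) from a gene end.

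Fgfr3 (chromosome 5, 33721724 to 33737068), which restrains growth of cartilage cells in the growth plate and is also made by epithelia, had 5 regions in the immobilized library, 2 in the non-immobilized library and 1 at day 0. Its start was called in all 3, with summits 12, 27 and 23 bp before the printed transcript start and ranks of 14621, 13298 and 13898. The immobilized library alone held 4 regions, 7756, 5082 and 768 bp before the start and 9438 bp inside the gene, at ranks 42720, 42878, 45257 and 21351. The last of these was the only one among the 23956 best summits of its list. In the lists as deposited the immobilized library had 7 summits here, against 2 in the non-immobilized library and 1 at day 0. The non-immobilized library alone held 1 region, 1299 bp inside the gene, at rank 32483. No summit of another library, at any rank, fell into any of these 5 one-library regions. For the non-immobilized list, which was used whole, this could not be otherwise. The difference between immobilized and non-immobilized was 3 here and between 1 and 5 in the 9 alternative settings run for single genes, and the difference between immobilized and day 0 was 4 and between 1 and 6. The keratinocyte markers had more regions in the same library (50, 14 and 11); their part in the Fgfr3 counts was not tested.

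**Figure D3:**
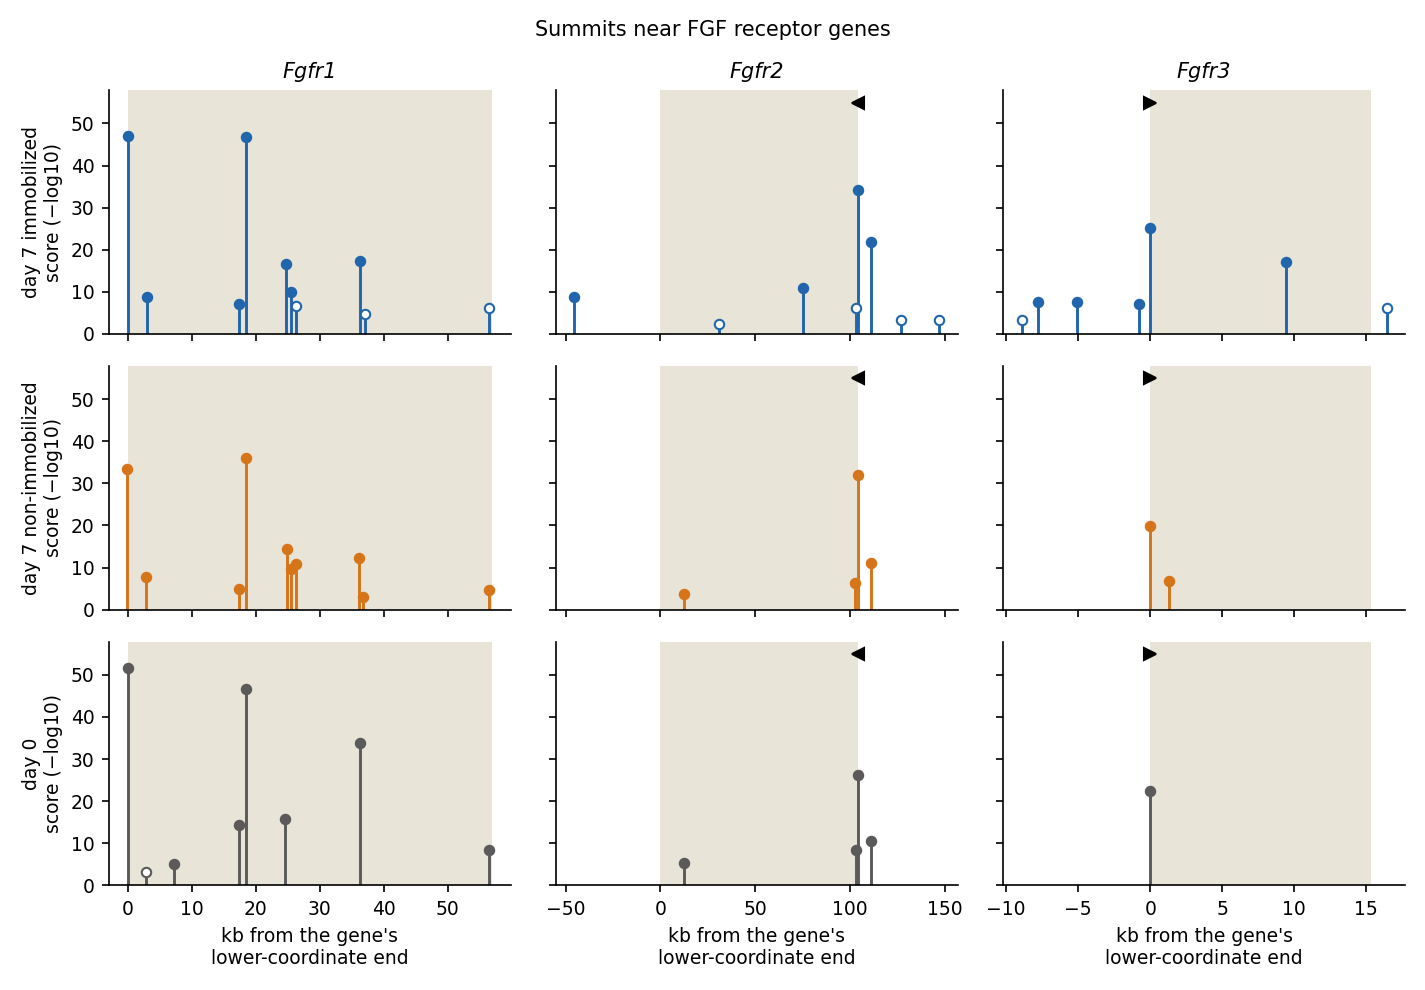
Summits near Fgfr1, Fgfr2 and Fgfr3 in the 3 libraries (rows), by distance from the gene's lower-coordinate end in kb (x axis) and the authors' score as −log10 of a p or q value (y axis); shading, arrowheads and open circles mark the gene, its start and summits beyond the matched list length, and Fgfr1 has no arrowhead because the tables used here do not give its strand. Fgfr1 shows the same 2 tallest summits in every library, and Fgfr3 shows 7 summits in the immobilized library, against 2 in the non-immobilized library and 1 at day 0.

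All 3 Sprouty genes had their best-ranked or second-best region at a gene end in every library. Spry1 (chromosome 3, 37639947 to 37644599), on the same chromosome as Fgf2, had 6, 8 and 5 regions in the immobilized, non-immobilized and day 0 libraries. Its start held summits 22 and 17 bp after the start in the immobilized and non-immobilized lists and 77 bp before it at day 0, at ranks 9692, 9114 and 9249. The region 9576 bp past the upper end ranked 9255, 13326 and 16445, and the one 22359 bp past it 17821, 20173 and 9158. As a percentage of each list's length, the ranks of the first were 13.7, 27.8 and 31.8 in the immobilized, non-immobilized and day 0 lists. Those of the second were 26.4, 42.1 and 17.7. Within its own list the first thus stood highest in the immobilized library and the second at day 0. Called in both day 7 libraries and not at day 0 was 1 region, 26101 bp before the start, at ranks 41124 and 30108. The non-immobilized library alone held 2 regions, 12482 and 21474 bp past the upper end, at ranks 36515 and 40200. Against day 0 the non-immobilized library held these 3 regions more, at ranks 30108, 36515 and 40200, and none fewer. The immobilized library alone had a region 29509 bp past the upper end (rank 34583), and the non-immobilized library and day 0 shared 1 at 28190 bp past it (ranks 44625 and 31712).

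Spry2 (chromosome 14, 105891947 to 105896819, minus strand) had 3, 4 and 3 regions and the best-ranked summit of the whole set. That summit stood 550 bp before the start at the same base in all 3 libraries, at ranks 4400, 2969 and 4890, with scores of 63.2, 58.2 and 53.8. A second shared region 2185 bp before the start ranked 20700, 16933 and 28191. Away from the gene, 26340 bp upstream, a region was called in both day 7 libraries (ranks 22820 and 20394), and the nearest day 0 summit was 3995 bp from it. At day 0 alone a region was called 21448 bp past the lower end (rank 45158), and in the non-immobilized library alone 1 lay 380 bp inside the start (rank 31643).

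Spry4 (chromosome 18, 38586247 to 38601347) had 4, 5 and 5 regions. Its best-ranked region lay at the upper end, at ranks 8878, 11511 and 9166; an end of Arhgap26 lies 270 bp beyond that end, so this region cannot be given to 1 of the genes by position. Inside the gene, 4154 bp from the lower end, a shared region ranked 15647 and 15413 in the immobilized and non-immobilized lists and 41895 at day 0. In rank numbers, this region has the day 0 rank farthest behind the worse day 7 rank among the 25 regions of the set called in all 3 libraries. As a percentage of each list's length its ranks were 23.2, 32.2 and 81.0 in the immobilized, non-immobilized and day 0 lists. A region 7390 bp past the lower end ranked 22944, 14014 and 23585. Far beyond the lower end, at 43109 bp in the immobilized, 43708 bp in the non-immobilized and 43863 bp in the day 0 library, all 3 lists had a summit, at ranks 12279, 13763 and 14581. The immobilized one stood 599 bp from the non-immobilized one, so 2 regions were counted. Called in 1 library were a region 9979 bp past the lower end (non-immobilized, rank 30209) and 1 at 41368 bp past it (day 0, rank 42055).

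**Figure D4:**
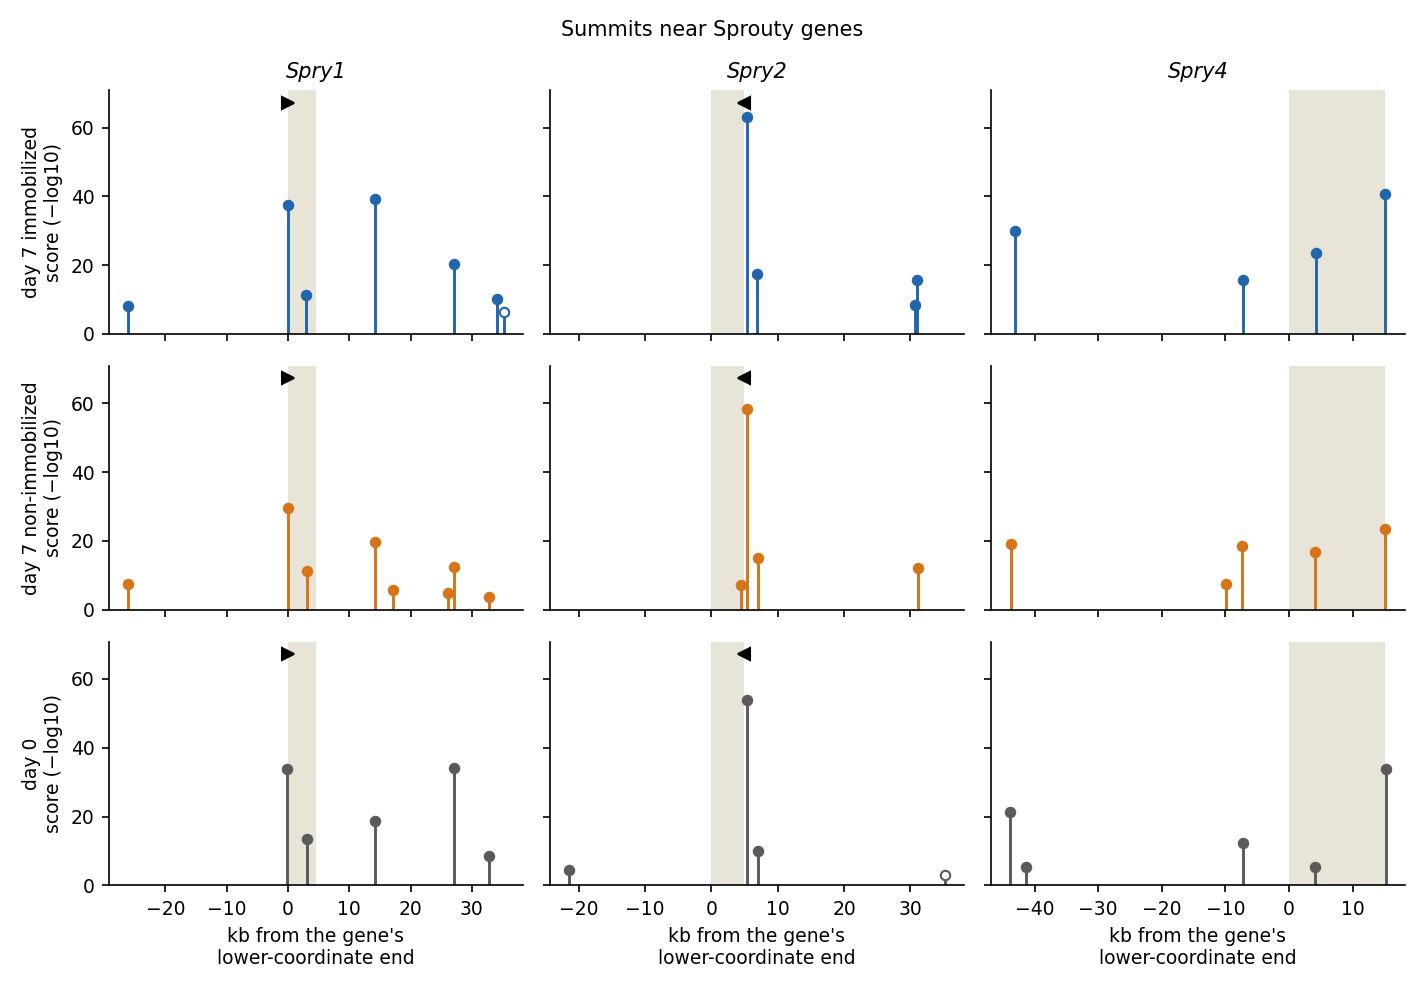
Summits near Spry1, Spry2 and Spry4 in the 3 libraries (rows), by distance from the gene's lower-coordinate end in kb (x axis) and the authors' score as −log10 of a p or q value (y axis); shading, arrowheads and open circles mark the gene, its start and summits beyond the matched list length. The tallest summit, 550 bp before the start of Spry2, has scores of 63.2, 58.2 and 53.8 in the immobilized, non-immobilized and day 0 libraries.

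The first comparison set the immobilized against the non-immobilized library at day 7. Over the 10 genes 11 regions were called in the immobilized library alone of the pair, 14 in the non-immobilized library alone and 29 in both. These are 20.4% (10.6 to 33.5) and 25.9% (15.0 to 39.7) of 54 regions, where the shares over all assigned regions were 18.3% and 17.1%. The interval of each share contains that of all regions. Fgfr3 gave 4 of the 11 and Fgfr2 2, and Fgfr1 and Spry1 3 each of the 14. Without Fgfr3 the counts were 7 and 13. Without both Fgfr2 and Fgfr3 they were 5 (11.9%, 3.98 to 25.6) and 11 (26.2%, 13.9 to 42.0) of 42. Both intervals contain the shares of all regions. Fgfr3 and Fgf7 had more regions in the immobilized library, 4 genes (Fgfr1, Spry1, Spry2 and Spry4) in the non-immobilized library, and Fgf2, Fgf18 and Fgfr2 as many in both; over all genes with a region 24.0% and 22.0% leaned to the immobilized and the non-immobilized side. Of the 14, 4 held an immobilized summit beyond the matched length. The like could not occur for the 11, because the non-immobilized list was used whole. The direction of the raw counts, 11 against 14, turned in 5 of the alternatives. They were 22 and 10 with the lists as deposited, where the shares of all regions were 31.8% and 7.67%. With summits widened by 500 bp they were 8 and 7 (all regions 17.5% and 14.2%). Within 10 kb they were 7 and 6 (all regions 14.5% and 14.3%). With the nearest gene of any kind they were 8 and 6 (all regions 19.6% and 17.9%). When absence meant the whole deposited list they were 11 and 10 (all regions 18.3% and 9.21%). In all 5 settings the shares of all regions leaned to the immobilized side, as they did in the main setting. Within 100 kb the counts tied at 15 and 15 (all regions 19.2% and 17.8%). The endothelial markers summed to 32 regions in the immobilized and 57 in the non-immobilized library. Their part in the lean of Fgfr1 and the Sprouty genes was not tested. The difference of Fgfr1, -3 in the main setting, was 0 with the lists as deposited. It was also 0 when absence meant the whole deposited list. Spry1, Spry2 and Spry4 were each at -1 with the lists as deposited.

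The second comparison set the immobilized library against day 0. Of 54 regions, 14 were called at day 7 alone, 14 at day 0 alone and 26 in both. Each of the first 2 is 25.9% (15.0 to 39.7), against 21.6% and 18.9% over all assigned regions. The ligands had 2 regions at day 7 alone (11.8%, 1.46 to 36.4) and 6 at day 0 alone (35.3%, 14.2 to 61.7). The receptors had 8 (40.0%, 19.1 to 63.9) and 4 (20.0%, 5.73 to 43.7), and the Sprouty genes 4 and 4. These intervals overlap each other and contain the shares of all regions. Fgfr3 accounted for 4 of the 8. The mesenchymal markers summed to 46 regions in the immobilized library, 48 in the non-immobilized library and 60 at day 0, and so were more numerous at day 0, as were the ligand regions. The smooth muscle markers (23, 24 and 32) and the skeletal muscle markers (20, 20 and 29) did the same; the part of any of these in the ligand counts was not tested. Of the ligand differences in this pair, that of Fgf2 turned to 2 with the 23956 best summits, and that of Fgf18 to 2 with the lists as deposited and 1 within 10 kb. Fgfr3 and Spry1 had more regions at day 7, and Fgf2, Fgf7, Fgf18 and Spry4 more at day 0; over all genes 26.7% and 22.7% leaned to these sides. Without Fgfr2 and Fgfr3 the counts were 8 at day 7 alone (18.6%, 8.39 to 33.4) and 12 at day 0 alone (27.9%, 15.3 to 43.7). With the lists as deposited, 25 were called at day 7 alone and 13 at day 0 alone, where the shares of all regions were 31.9% and 11.7%.

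The third comparison set the non-immobilized library against the same day 0 library. Of 51 regions, 11 were called at day 7 alone (21.6%, 11.3 to 35.3), 8 at day 0 alone (15.7%, 7.02 to 28.6) and 32 in both (62.7%, 48.1 to 75.9). Over all assigned regions the first 2 shares were 20.8% and 19.3%. The ligands had 0 of 15 regions at day 7 alone, with an upper limit of 21.8%, and 5 at day 0 alone (33.3%, 11.8 to 61.6). The receptors had 5 at day 7 alone (29.4%, 10.3 to 56.0) and 1 at day 0 alone, and the Sprouty genes 6 (31.6%, 12.6 to 56.6) and 2; all these intervals contain the shares of all regions. The endothelial markers had 41 regions at day 7 alone and 6 at day 0 alone, and their part in these counts was not tested. Fgfr1, Fgfr3, Spry1 and Spry2 had more regions at day 7, and Fgf2, Fgf7 and Fgf18 more at day 0, against 25.4% and 23.7% of all genes. The 8 regions at day 0 alone ranked between 35366 and 46001, and the 11 at day 7 alone between 20394 (Spry2) and 46363 (Fgfr1). The direction of 11 against 8 turned to 4 and 5 within 10 kb, where the shares of all regions were 17.1% and 14.8%. With the nearest gene of any kind it turned to 3 and 5 (all regions 21.3% and 21.2%). It became a tie with the lists as deposited (10 and 10, all regions 18.5% and 21.9%). Summits widened by 500 bp also gave a tie (6 and 6, all regions 18.5% and 17.8%). Ties also came within 100 kb (11 and 11, all regions 21.3% and 20.4%) and without Fgfr1 (7 and 7). With the 23956 best summits of each list, Fgf2 had 2 more regions at day 7 than at day 0 in either library, the reverse of its difference of -2.

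**Figure D5:**
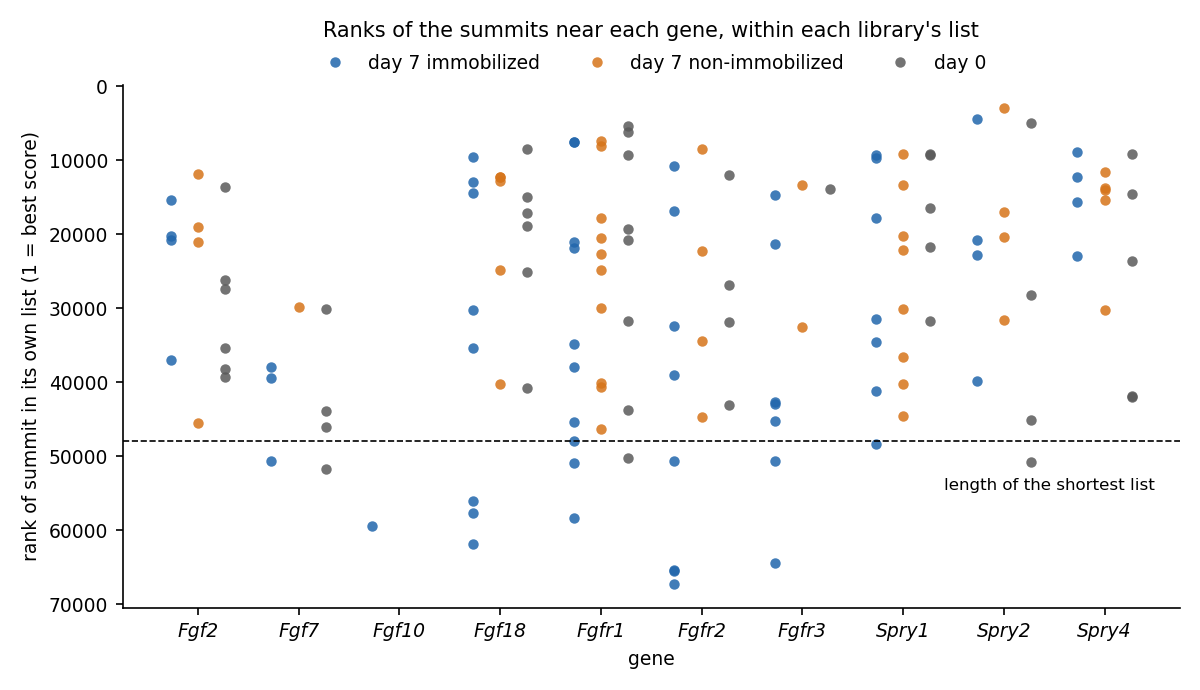
Rank of every deposited summit near the 10 genes within its own list (y axis, rank 1 at the top), by gene and library; the dashed line is the length of the shortest list, 47912. The best summit of Spry2 stands at ranks 4400, 2969 and 4890, and the 15 immobilized and 3 day 0 summits under the line were left out of the counts of regions.

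Of the 61 regions of the 10 genes, 25 were called in all 3 libraries, or 41.0% (28.6 to 54.3), against 48.5% of all assigned regions. Called in 1 library only were 24 (39.3%, against 33.5%): 10 in the immobilized library (11.1% of all regions had that pattern), 7 in the non-immobilized library (10.2%) and 7 at day 0 (12.2%). The set held 4 regions called in both day 7 libraries and not at day 0, 2 at Fgfr1 and 1 each at Spry1 and Spry2, where 8.3% of all regions had that pattern. Within 1 kb of a gene end stood 13 of the 61 regions (21.3%, against 27.0% of all), of which 8 were called in all 3 libraries (61.5%, against 76.1% of all such regions). Farther out 17 of 48 were (35.4%, 22.2 to 50.5), against 38.2% of all such regions. In the 25 shared regions the summits of the 3 libraries spread over a median of 74 bp (0 to 251). Over 23252 shared regions with 1 summit per library the median was 40 bp (0 to 900). The difference was not tested, and the sets were not matched for rank or distance to a gene end. Joining overlapping windows itself limits this spread. Regions called in all 3 libraries had a median best rank of 13298 and those of 1 library 37774, close to the 11600 and 37939 of all regions.

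Other genes of the pathway, 56 in all, were read in the same way; 53 lie on the autosomes and 47 had at least 1 region. Against the non-immobilized library, the immobilized library alone held 44 of their 204 regions (21.6%, 16.1 to 27.9). The non-immobilized library alone held 31 (15.2%, 10.6 to 20.9). Over all assigned regions these shares were 18.3% and 17.1%. The 13 adaptor and effector genes had 15 and 6, the 10 feedback inhibitors 11 and 9, and the 18 ligands 6 and 9. The 9 receptors and co-receptors had 7 and 4, and the 6 target transcription factors 5 and 3. As a share of its sub-list's regions, each of these counts has an interval that contains the share of all regions. Against day 0, the immobilized library alone held 46 (21.9%) and day 0 alone 37 (17.6%), where all assigned regions gave 21.6% and 18.9%. The non-immobilized library alone held 37 (18.4%) and day 0 alone 41 (20.4%), where all assigned regions gave 20.8% and 19.3%. The feedback inhibitors had 15 in the immobilized library alone (27.3%, 16.1 to 41.0) and 7 at day 0 alone (12.7%, 5.27 to 24.5). For the non-immobilized library these were 14 (25.9%, 15.0 to 39.7) and 8 (14.8%, 6.62 to 27.1). The intervals contain the shares of all regions. Adaptors and effectors had 11 in the immobilized library alone (17.7%, 9.2 to 29.5) and 14 at day 0 alone (22.6%, 12.9 to 35.0). They had 4 in the non-immobilized library alone (7.27%, 2.02 to 17.6) and 16 at day 0 alone (29.1%, 17.6 to 42.9). The interval of the 4 lies below the 20.8% of all regions, and the others contain theirs. It is 1 of many sub-list intervals read here, with no correction for their number. The limits also treat regions as independent, while Gab1 alone held 22 of the 64 adaptor and effector regions. No depletion is therefore concluded. Gab1 gave 1 of the 4 and 6 of the 16.

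Dusp5, a phosphatase that inactivates nuclear ERK, had the widest difference among them: 6, 8 and 2 regions in the immobilized, non-immobilized and day 0 libraries, with 4 and 6 regions in each day 7 library alone and 0 at day 0 alone. Gab1, a docking protein of receptor tyrosine kinases, leaned the other way with 15, 14 and 19 regions. Spred2, a Sprouty relative that also dampens the MAP kinase cascade, had 9, 6 and 8. The FGF target factors Etv4 and Etv5 had 9, 8 and 6 regions and 6, 4 and 5 regions. Dusp6, the ERK phosphatase most used as a readout of FGF signalling, had 7, 6 and 6, and Fgfr4 6, 6 and 5, of which 5 were called in all 3 libraries.

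Fgfr1 had the most one-library regions summed over the 3 comparisons. Nearest to its own counts over the 7 possible patterns of calls were those of Asap1, Cyth1 and Epn2, each at a Euclidean distance of 1.0. Ties were broken by symbol, so other genes at that distance may go unnamed. Each of the 3 named genes had 5 regions called in all 3 libraries and 2 called in both day 7 libraries alone, as Fgfr1 had. The likeness rests on 3 libraries and small counts.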

How the data were processed

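Groups follow the sample labels. Per the labels' protocols the assay was Omni-ATAC. The submitters' processing notes list, without roles or settings, the build mm10 and MACS2 2.1.2, bedtools 2.28.0, SAMtools 1.2, Picard, Bowtie2 2.3.4.1, cutadapt and Trim Galore. The sources used here do not give whether reads were shifted for the transposase, or the cutoff for peaks. For each library the authors deposited summits with a score that MACS2 layouts give in −log10 form; p and q were not told apart. The authors' run statistics hold read counts, the duplicate fraction and the percent aligned, per the file headers. Multiplying trimmed pairs by the share aligned and the share not duplicated gave the pairs left.

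Gene ends came from RefSeq's table of GRCm38.p6, which gives neither exons nor strand; strand and promoter sequence came from RefSeq's promoter table. Exons, introns and motifs in distal regions were not analysed here. Equal scores were ranked in file order. Lowest scores kept were 6.61, 1.33 and 4.0 for immobilized, non-immobilized and day 0. The genes, lists and settings were chosen with earlier results of these data known. Named were the 10 genes, Fgfr4, Dusp6, Etv4, Etv5, pathway genes with a difference of 3 or more one-library regions in any pair, and the 3 genes nearest in pattern to the one of the 10 with most one-library regions. Alternatives were the deposited lists, the 23956 best summits, widths of 100 and 500 bp, distances of 10 and 100 kb, the gene that holds the summit, absence from the whole deposited list, leaving out the leading gene and, added after the data were seen, the nearest gene of any kind. Counts without both Fgfr2 and Fgfr3 stand outside these alternatives. Region calls and gene distances were checked on 5000 simulated regions. The myeloid markers summed to 12, 14 and 9 and the Schwann markers to 8, 9 and 9 regions for immobilized, non-immobilized and day 0. Python 3.11.15 was used with matplotlib 3.10.9, scipy 1.17.1, pandas 2.3.3 and numpy 2.4.6.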

Additional observations from a re-analysis of the deposited data

How the results depend on the processing

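No paired analysis was possible because each group is 1 library. Counts are given as immobilized against non-immobilized, immobilized against day 0, and non-immobilized against day 0. With the 23956 best summits of each list, only-first counts were 4, 9 and 7, only-second counts 5, 5 and 2, and shared counts for the last 2 pairs 15 and 18. The only-first shares of all regions there were 13.6%, 16.6% and 17.2%, and the only-second shares 14.1%, 15.7% and 15.8%. Within 10 kb only-first counts were 7, 7 and 4, only-second counts 6, 7 and 5, and shared counts 17, 17 and 19. All regions then gave 14.5%, 17.4% and 17.1% (only first) and 14.3%, 14.8% and 14.8% (only second). With the nearest gene of any kind the set kept 33 regions. The moved counts were 8 and 3 (only first, last 2 pairs), 6, 8 and 5 (only second) and 15, 15 and 18 (shared). All regions gave 22.4% and 21.3% (only first, last 2 pairs) and 17.9%, 20.7% and 21.2% (only second). With the lists as deposited, only-first counts were 22 and 25 in the first 2 pairs, where the shares of all regions were 31.8% and 31.9%. With summits widened by 500 bp, only-second counts were 7 and 9 in the first 2 pairs (all regions 14.2% and 16.6%). The only-first count of the last pair was 6 (all regions 18.5%). Without the leading gene, only-first counts were 7 in the first pair (without Fgfr3) and 7 in the last pair (without Fgfr1). The other 68 of 100 alternative values of the set stayed within 1.5 times their value (counts) or within its interval (share called in all 3 libraries, 38.4% to 54.0%). Over single genes 6 of 270 alternative differences changed sign, and 26 more moved by more than 1. Differences of 0 in the main setting, as for Fgf10 and Fgfr2 in every pair, could not change sign. With the 23956 best summits the sign changed for Fgf2 (2 against day 0 in either day 7 library), Spry1 (-1, immobilized against day 0) and Spry4 (1, same pair). For Fgf18 in that pair the difference turned to 2 with the lists as deposited and to 1 within 10 kb. The cause was not tested. The non-immobilized list was used down to its lowest score, so weaker signal there is not listed, while 15 immobilized and 3 day 0 summits near these genes lay beyond the matched length.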
